A study of Homo sapiens with 6 samples.

Results

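The genes described here are 10 genes of iron uptake, storage, export and their control: TFRC, STEAP3, SLC11A2, FTH1, FTL, NCOA4, SLC40A1, IREB2, ACO1 and FBXL5. They were chosen by symbol and known role, with earlier results of these data known, and each was found at a single locus among the 22933 gene symbols of the deposited table. RNA-Seq was performed on 6 samples of PC-3, an established human prostate cancer cell line with epithelial features. All samples carried the rtTA2 transactivator from a pRetroX-Tet-On-Advanced retrovirus, were G418-resistant, expressed tdTomato from the PGK promoter and received 300 ng/ml doxycycline (Dox) for 4 hours. In 3 samples, labelled tdTom, the second retrovirus held no further insert. In the other 3, labelled TTP-tdTom, it also held TTP (tristetraprolin) behind a Tet-responsive promoter, so that Dox treatment was shared and TTP was the labelled difference. Infected cells were sorted by flow cytometry, and no clones are named. The comparison asks which transcripts differ soon after TTP is induced.

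The table gives 1 FPKM value per group and locus (fragments per kilobase of transcript scaled to the number of mapped fragments, a level relative to length and library size). Samples of a group were joined by the authors, so no value per sample and no spread between replicates can be given. The authors' own test results in the table were not used, and the ratios are described here without a test. The number of fragments behind each value, and with it the precision, is unknown. All fold changes below are log2 ratios of the FPKM in the group labelled TTP-tdTom over that in the tdTom group, and a gene is counted as lower or higher when this ratio passes 1.5-fold, which is 0.58 on the log2 scale. Where values are given as a pair, that of the tdTom group comes first. At ZFP36 (chr19:39897487-39900052), which encodes TTP, the tdTom group had 5.56 FPKM and the group labelled TTP-tdTom 5.54 FPKM. Coordinates here and below are those of the table, on GRCh37, and span whole genes. The ZFP36 locus therefore does not separate the groups, and whether transgene fragments were counted there was not tested. The direction of every ratio below is taken from the labels. Of the epithelial markers, KRT18 had the highest mean level (98.2 and 91.5 FPKM) and CDH1, which encodes E-cadherin, the lowest (0.119 and 0.390 FPKM), while the prostate marker KLK3 was at 1.12 and 0.681 FPKM. TMPRSS2, the highest prostate marker, was at 1.78 and 2.53 FPKM. All 5 erythroid markers lay under 1 FPKM in both groups, with sums of 0.778 and 0.681 FPKM. Of the fibroblast markers COL1A1 was the highest, at 4.34 and 4.56 FPKM, and of the leukocyte markers CD68, at 323.2 and 262.1 FPKM in a row shared with 5 other symbols. The other 4 leukocyte markers lay under 1 FPKM in both groups, with PTPRC at 0.243 and 0.566. Some markers were split over several loci: CDH1, KLK3, CD68 and PTPRC over 2 each and COL1A1 over 9. Marker values are those of 1 chosen locus, the one with the most RefSeq names, so a low value there need not be the level of the whole gene.

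Cells take up iron mainly as transferrin bound to the transferrin receptor (TFRC). After endocytosis the iron is reduced by STEAP3 and carried out of the endosome by SLC11A2 (DMT1). Iron that is not used is stored in ferritin, a shell of heavy (FTH1) and light (FTL) chains that is delivered to the lysosome by NCOA4, and iron leaves the cell through ferroportin (SLC40A1). The iron regulatory proteins IRP1 (ACO1) and IRP2 (IREB2) bind stem-loops called iron-responsive elements: in the 5′UTR of ferritin and ferroportin mRNAs they block translation, and in the 3′UTR of TFRC mRNA they protect it from decay. FBXL5 is the iron-sensing ubiquitin ligase subunit that removes IRP2. TTP binds AU-rich elements in 3′UTRs, of which UAUUUAU is a core heptamer, and leads the mRNA to decay.

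The elements themselves were read from the transcripts of GENCODE release 29, which held all 10 genes. The search for an iron-responsive element asked for a C, 5 bases, the loop CAGUGN and 5 bases, with both arms paired at all 5 positions (G-U pairs allowed). It was made on the transcript strand only. Of 10762 expressed genes searched, 0.204% held such a stem-loop in a 5′UTR and 0.827% in a 3′UTR. The loop letters alone are common, at 77.1% of the longest 3′UTRs and 36.6% of the longest 5′UTRs. Stem-loops were found in 4 of the 10 genes. They are printed 5′ to 3′ with the loop in capitals, because stem-loops of this form are what the IRPs bind:
FTH1 5′UTR: cuucaaCAGUGCuugga
FTL 5′UTR: cuucaaCAGUGUuugga
SLC40A1 5′UTR: cagcuaCAGUGUuagcu
TFRC 3′UTR, from base 941: cggaagCAGUGCcuucc
TFRC 3′UTR, from base 1345: cgggagCAGUGUcuucc
TFRC 3′UTR, from base 1410: cggagaCAGUGAucucc
TFRC 3′UTR, from base 1457: cgggaaCAGUGUuuccc
In this strict form FTH1, FTL and SLC40A1 thus carried 1 element each, ahead of the coding sequence, and TFRC carried 4 behind it. Elements with an unpaired position in the arms would be missed, so these counts can be too low. No stem-loop of this strict form was found in the annotated UTRs of SLC11A2, which says only that these letters and pairs are not there.

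The heptamer UAUUUAU stood in the longest 3′UTR of 5 of the 10 genes, against 36.5% of the 10716 expressed symbols that had a 3′UTR in GENCODE release 29. All 5 were among the 9 iron genes that count as expressed. The longest 3′UTR of the expressed symbols had a median of 1408 bases, and the shares were not matched for length. The sites are shown with 7 bases on either side and the heptamer in capitals, since TTP binds sequences of this kind:
IREB2, from base 1565: ugcuguaUAUUUAUuuguuag
ACO1, from base 1626: gggaucuUAUUUAUauucauu
TFRC, from base 866: acugagaUAUUUAUuguuuau
SLC11A2, from base 395: caaguuuUAUUUAUcaaaaug
SLC11A2, from base 841: augguagUAUUUAUgaacuga
SLC11A2, from base 1869: aaaguuaUAUUUAUgacuugc
FTH1, from base 271: guauuugUAUUUAUuaaacuc
Positions are counted from 1 after the stop codon, in longest 3′UTRs of 3313 bases for IREB2, 4658 for ACO1, 2658 for TFRC, 2333 for SLC11A2 and 442 for FTH1. Of the annotated transcripts with a 3′UTR, the heptamer was in 3 of 3 for TFRC, 7 of 10 for SLC11A2, 1 of 2 for IREB2, 1 of 3 for ACO1 and 1 of 6 for FTH1. TFRC held a second copy at bases 884 to 890, ahead of the first stem-loop found by the strict search. The longest 3′UTRs of NCOA4 (1504 bases), FBXL5 (1184 bases), SLC40A1 (1299 bases), STEAP3 (2314 bases) and FTL (143 bases) held none. A match is a description of the annotated sequence and not a measured binding site.

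**Figure D1:**
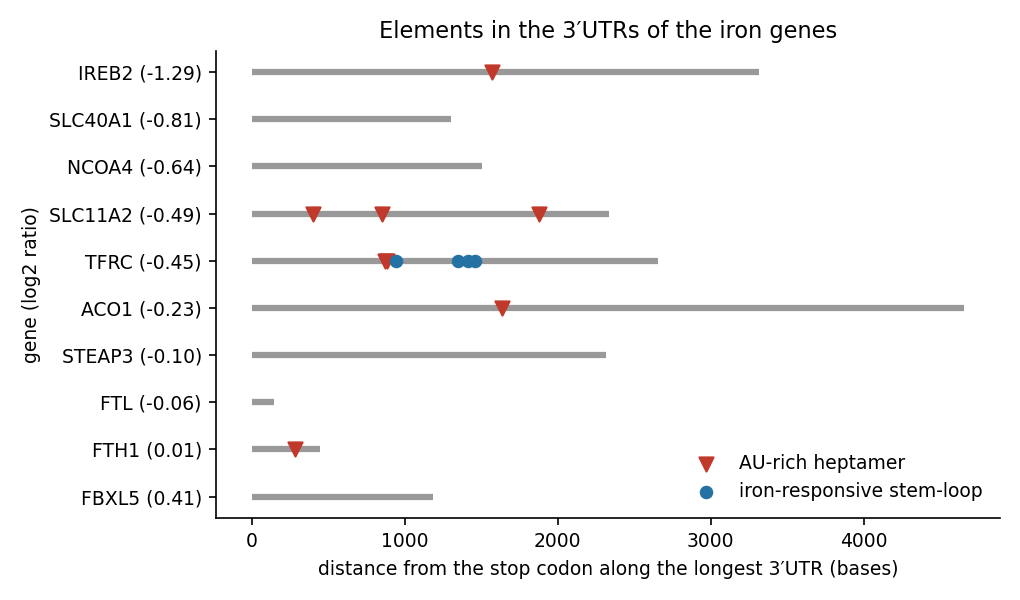
Horizontal bars span the 3′UTR of each gene (the longest in the annotation), in bases from the stop codon, with red triangles for the AU-rich heptamer and blue dots for iron-responsive stem-loops. Genes are ordered by log2 ratio, from IREB2 at -1.29 to FBXL5 at 0.41, and the stem-loops of this form lie in TFRC alone.

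Across the whole group, the iron genes passed 1.5-fold about as often as the rest of the table. Expressed symbols, defined by a mean FPKM over both groups of at least 1 and a value above 0 in each, numbered 12511, and 9 of the 10 iron genes were among them. Of these 9, IREB2 and NCOA4 were lower by 1.5-fold or more in the group labelled TTP-tdTom, which is 22.2% of them, against 22.7% of all expressed symbols. None of the 9 was higher by 1.5-fold, against 2.37% of all expressed symbols. Both shares are near their backgrounds. The median log2 ratio was -0.23 over the 9 genes and -0.24 over all expressed symbols, so that a ratio of -0.24 marks the middle of the table. Of all expressed symbols 79.9% had a ratio below 0, and the source of this shift was not tested. SLC40A1, the gene outside the expression filter, is described below with the others.

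**Figure D2:**
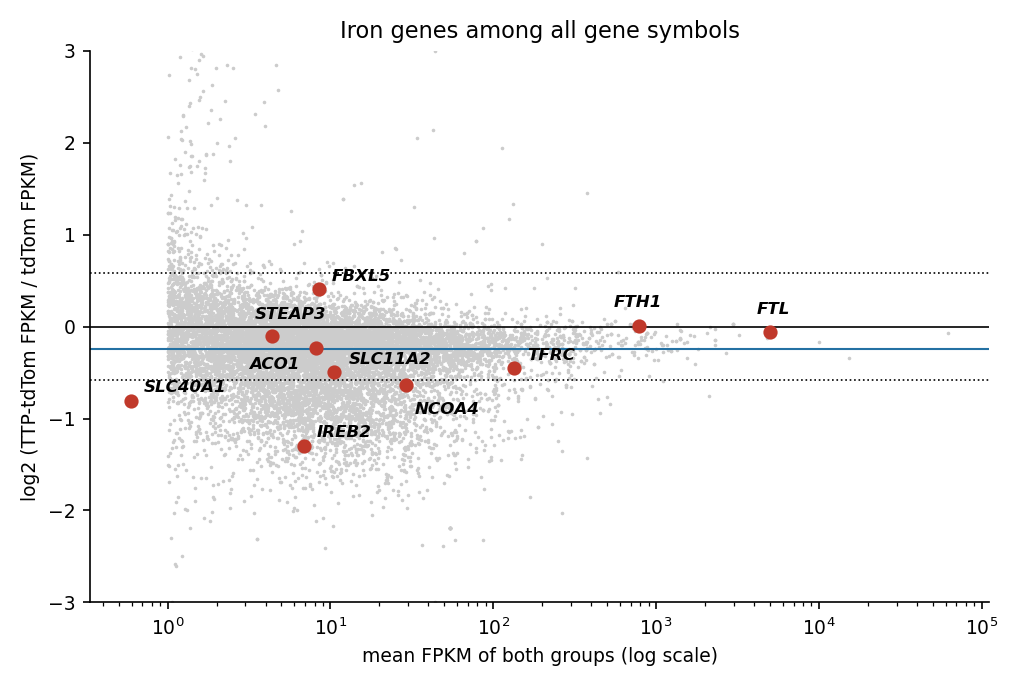
Each grey point is an expressed gene symbol, with its mean FPKM over both groups on a log axis and its log2 ratio of the group labelled TTP-tdTom over tdTom (54 symbols lie outside the drawn range); red points are the 10 iron genes. The blue line is the median of -0.24 and the dotted lines mark 1.5-fold: IREB2 lies far below the lower line, NCOA4 just below it, and FBXL5 is the highest of the red points.

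The 3 uptake genes had lower values in the group labelled TTP-tdTom, none of them past 1.5-fold, although STEAP3 was higher by 0.14 once ratios were taken relative to the table's median. In bulk RNA, fewer cells with a transcript and less of it per cell cannot be told apart. TFRC (chr3:195776155-195809032), the receptor that brings transferrin into the cell, stood at 155.5 FPKM with tdTom and at 113.5 FPKM in the group labelled TTP-tdTom, or 73.0% of the control level. This log2 ratio of -0.45 was 0.21 below the table's median, and 29.9% of expressed symbols had a lower one. Among the 500 symbols nearest to TFRC in mean FPKM, 23.0% had a lower ratio, and their lower quartile was -0.42. TFRC, with 4 stem-loops of the strict form and 2 AU-rich heptamers, was therefore in the lower part of the table but not at its edge.

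SLC11A2 (chr12:51372947-51422058), the divalent metal transporter of the endosome, had 12.3 FPKM in tdTom cells and 8.73 FPKM in the group labelled TTP-tdTom, a log2 ratio of -0.49. Of all expressed symbols 27.7% had a lower ratio, so its position was close to that of TFRC, which was 12.7 times as high in tdTom cells. STEAP3 (chr2:119981384-120023227), the ferrireductase that lets SLC11A2 carry the iron, had 4.51 and 4.21 FPKM, a log2 ratio of -0.10, which is above the median of the table. The reductase thus did not share the position of the receptor and the transporter, although a difference between these genes cannot be tested on 1 value per group.

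The ferritin chains were by far the most abundant transcripts of the group and had nearly equal values in the groups. FTL (chr19:49468566-49470136), the light chain, reached 5081 FPKM in tdTom cells and 4868 FPKM in the group labelled TTP-tdTom, a log2 ratio of -0.06. By level it ranked 5 and 9 among the 22933 symbols. FTH1, the heavy chain that oxidises the iron, reached 779.5 and 784.4 FPKM, a log2 ratio of 0.01. FTL was thus 6.52 times as high as FTH1 in the tdTom group and 6.21 times in the group labelled TTP-tdTom. Both lie above the median of the table, by 0.25 for FTH1 and 0.18 for FTL. Of the 500 symbols nearest in mean FPKM, 90.6% had a lower ratio than FTH1 and 79.6% a lower ratio than FTL.

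The locus given for FTH1, chr11:61717356-61735345, is the same span as that given for BEST1, whose FPKM was 0.813 and 0.667. It was the only iron gene whose span met that of another locus. Ferritin genes also have near-identical copies elsewhere in the genome, between which fragments can be split or shared. In the table FTH1P3 was at 1.03 FPKM for tdTom and 0.967 for the group labelled TTP-tdTom, and the mitochondrial ferritin FTMT was at 0.157 and 0.186. The locus chosen for FTLP10 was listed at 0 and 4.68. How fragments were assigned among such copies was not tested.

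NCOA4, the receptor that takes ferritin to the lysosome and so releases its iron, had a lower value. At chr10:51565108-51590734, the table gave 35.5 FPKM for tdTom and 22.8 FPKM for the group labelled TTP-tdTom. That is 64.3% of the control level, a log2 ratio of -0.64, just past the 1.5-fold limit, and -0.40 relative to the table's median, short of it. It is not a rare ratio in this table: 20.3% of expressed symbols, and 24.8% of the 500 nearest in level, had a lower one. NCOA4 held no UAUUUAU in its 3′UTR. Ferritin chains and the receptor for their turnover therefore had unlike ratios, near 0 for the chains and -0.64 for the receptor.

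SLC40A1 encodes ferroportin, the iron exporter, and was barely detected. At chr2:190425316-190445537 the values were 0.761 FPKM for tdTom and 0.435 FPKM for the group labelled TTP-tdTom. Its log2 ratio of -0.81 is that of a transcript with a mean FPKM of 0.598, and with a pseudocount of 1 FPKM added to both values it became -0.29. TFRC was 204.4 times as high as SLC40A1 in the tdTom group and 261.0 times in the group labelled TTP-tdTom. In either group these cells had much receptor and storage mRNA and little exporter mRNA.

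**Figure D3:**
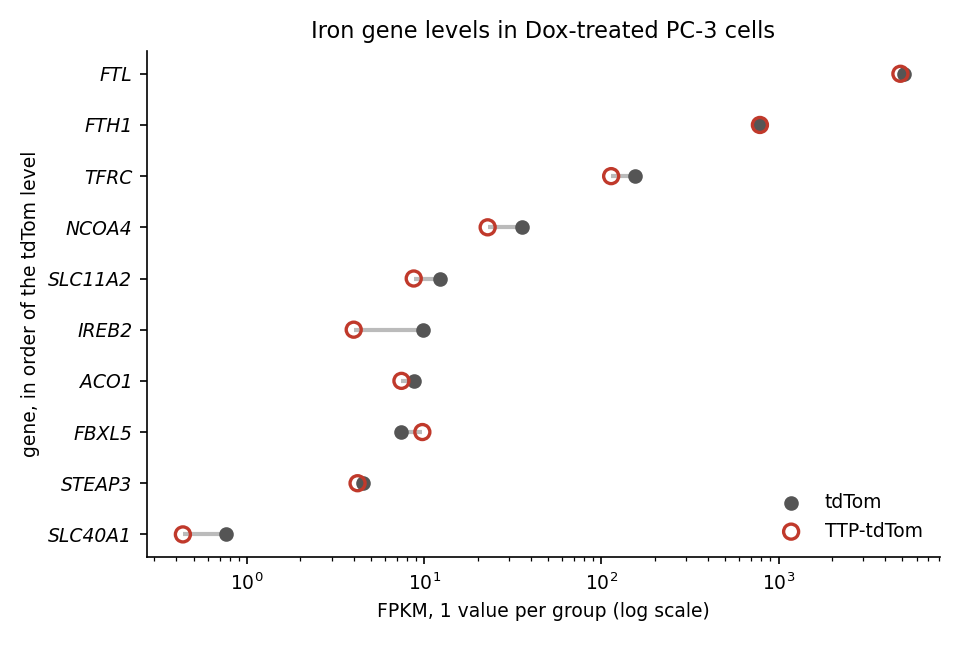
FPKM of each iron gene on a log axis, filled grey for tdTom and open red for the group labelled TTP-tdTom, 1 value per group and no error. FTL and FTH1 overlap between the groups at the top, IREB2 shows the widest gap, FBXL5 is displaced to the right by more than FTH1, and SLC40A1 lies under 1 FPKM in both groups.

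The genes that sense iron differed most among themselves. IREB2 (chr15:78730518-78793798), which encodes IRP2, stood at 9.82 FPKM with tdTom and at 4.00 FPKM in the group labelled TTP-tdTom, or 40.8% of the control level. The log2 ratio of -1.29 was the lowest of the iron genes, and 3.21% of expressed symbols had a lower one. Among the 500 symbols nearest in mean FPKM the share was 2.60%, so that its position was much the same among transcripts of its own level. IREB2 was the only iron gene lower by 2-fold, a limit that 8.30% of all expressed symbols passed, and it stayed past 1.5-fold with either pseudocount, with centring and with scaling to the same FPKM sum.

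ACO1 encodes IRP1, the other IRP, which serves as a cytosolic aconitase when it holds an iron-sulfur cluster. ACO1 (chr9:32384281-32451786) had 8.76 FPKM in tdTom cells and 7.44 FPKM in the group labelled TTP-tdTom. The log2 ratio of -0.23 lies at the middle of the table, with 50.5% of expressed symbols lower. ACO1 was at 0.892 times the level of IREB2 in tdTom cells and at 1.86 times in the group labelled TTP-tdTom, so that their order was exchanged. Both genes hold 1 copy of UAUUUAU in the longest 3′UTR, in ACO1 within 4658 bases and in IREB2 within 3313.

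FBXL5 was the iron gene with the highest ratio. Its locus, chr4:15606007-15657035, had 7.36 FPKM in tdTom cells and 9.77 FPKM in the group labelled TTP-tdTom. This is 1.33 times the control level, a log2 ratio of 0.41, which does not reach 1.5-fold but is 0.65 above the median of the table, past 1.5-fold on that scale. A lower ratio was found in 96.3% of expressed symbols and in 98.8% of the 500 nearest in level. FBXL5 transcripts, whose product removes IRP2, stood at 0.749 times the level of IREB2 in the tdTom group and at 2.44 times in the group labelled TTP-tdTom. The regulator that removes IRP2 and the IRP2 gene itself thus lay toward opposite ends of the table.

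Among the 5 iron genes with UAUUUAU in the longest 3′UTR, the log2 ratios ran from -1.29 (IREB2) over -0.49 (SLC11A2), -0.45 (TFRC) and -0.23 (ACO1) to 0.01 (FTH1). Among the 5 without it, they ran from -0.81 (SLC40A1) and -0.64 (NCOA4) over -0.10 (STEAP3) and -0.06 (FTL) to 0.41 (FBXL5). The ranges overlapped over most of their length, and the middle values were -0.45 with the heptamer and -0.10 without it. SLC40A1, the low end of the second range, was outside the expression filter. A difference between the 5 genes with it and the 5 without it was not tested. Over the 10716 expressed symbols with an annotated 3′UTR, the median log2 ratio was -0.44 with the heptamer and -0.18 without it.

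In pathways that join the iron genes, most genes also had a lower value, as in the table at large. Over all 11 lists of related genes, 87 genes were expressed, of which 17 (19.5%) were lower by 1.5-fold and 1 was higher, against backgrounds of 22.7% and 2.37%. The transferrin cycle and ferrireductase list had 7 expressed genes, all with a ratio below the median of the table and with a list median of -0.52. SLC39A8, a zinc and iron importer, was lower at 6.37 and 2.98 FPKM, and STEAP2, a relative of STEAP3, at 8.46 and 5.16. SLC39A14, an importer of iron not bound to transferrin, had 23.6 and 16.3 FPKM and did not pass 1.5-fold. The list median lay near the ratios of TFRC and SLC11A2.

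Of the 10 clathrin endocytosis genes, which bring the receptor inside, PICALM alone was lower by 1.5-fold. It had 17.3 FPKM in the tdTom group and 5.74 in the group labelled TTP-tdTom, a log2 ratio of -1.59. The adaptor subunit AP2B1 had 56.1 and 43.7, and AP2M1, whose locus also carries another symbol, 92.2 and 67.8. The list median of -0.20 was above that of the table.

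The list for ferritin turnover by autophagy, the route of NCOA4, had 4 of 11 expressed genes lower by 1.5-fold and a median of -0.38. GABARAPL2, a member of the ATG8 family that marks autophagosomes, had 126.3 and 49.7 FPKM, a log2 ratio of -1.34. MAP1LC3B, of the same family, had 49.2 and 21.6, and TAX1BP1, an autophagy receptor, 23.5 and 13.1. The fourth, RB1CC1, was named after its value was seen and had 4.06 and 2.34 FPKM. GABARAP (39.9 and 32.4) and ATG9A (10.6 and 10.7), also named after their values were seen, were not past 1.5-fold, so that the list was not uniform. The partners of FBXL5 in its ubiquitin ligase, SKP1 (94.7 and 76.3 FPKM), CUL1 (19.5 and 16.7) and RBX1 (28.8 and 28.2), had ratios between -0.31 and -0.03 and did not share the higher value of FBXL5.

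Heme synthesis genes had a list median of -0.16, with 2 of 8 expressed genes lower by 1.5-fold. These were CPOX, which acts before the last steps of the pathway (8.01 and 4.15 FPKM), and FECH, the ferrochelatase that inserts the iron (8.37 and 5.12). Of 9 genes for heme traffic and breakdown none was lower and FLVCR2 was higher, at 0.743 and 1.31 FPKM, a level close to the filter. The heme exporter FLVCR1 had 5.37 and 3.67 FPKM, and the heme oxygenase HMOX2 13.6 and 18.2. The log2 ratio of HMOX2, 0.42, was close to that of FBXL5.

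Mitochondrial iron import and iron-sulfur cluster assembly had 4 of 21 expressed genes lower by 1.5-fold and a median of -0.33. The transporter ABCB10 had 8.89 and 4.07 FPKM, the ferredoxin FDX1 6.10 and 2.98, and BOLA3, a cluster transfer factor, 66.3 and 36.9. In cytosolic cluster assembly 1 of 9 was lower, FAM96A with 8.06 and 4.20 FPKM, while NUBP1 had 5.35 and 4.03 and CIAO1 25.0 and 21.8. The list median of the cytosolic genes was -0.11. The iron chaperones had 0 of 4 expressed genes past 1.5-fold, with 69.9 and 54.2 FPKM for GLRX3, 39.6 and 32.1 for PCBP1 and 53.4 and 44.1 for PCBP2. Of the export and hepcidin list CP, the copper ferroxidase of plasma, was the expressed gene, with 2.05 and 1.63 FPKM.

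Of other mRNAs for which an iron-responsive element has been described, 4 were expressed and 3 were lower by 1.5-fold. CDC42BPA, a kinase, had 26.5 and 9.34 FPKM, a log2 ratio of -1.50. CDC14A, a phosphatase, had 2.12 and 0.793, and PFN2, a profilin, 234.3 and 152.4. With 4 genes, this count cannot be set against the background of 22.7%, and the iron genes that held a stem-loop had log2 ratios from -0.81 to 0.01.

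**Figure D4:**
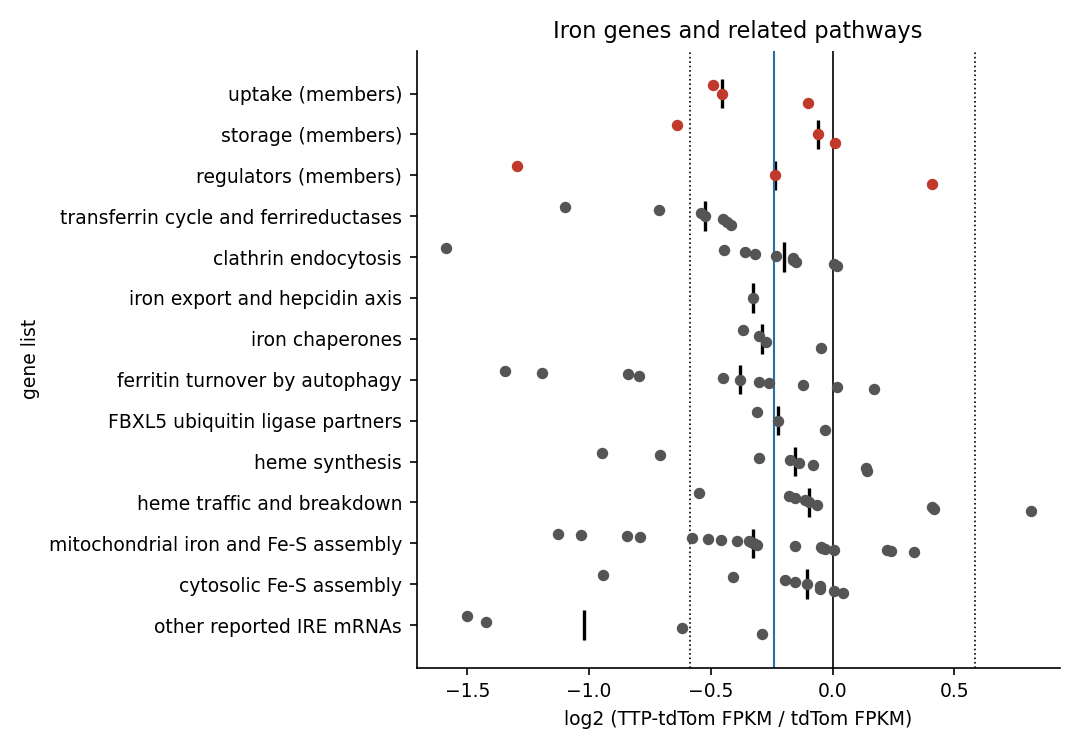
Each point is an expressed gene at its log2 ratio of the group labelled TTP-tdTom over tdTom, red for the iron genes and grey for related lists, with a black bar at each list's median. The blue line is the median of all expressed symbols (-0.24) and the dotted lines mark 1.5-fold: IREB2 and FBXL5 are the ends of the regulators' range, and PICALM stands alone among the endocytosis genes.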

How the data were processed

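According to the methods and the submitters' processing notes, strand-specific libraries were sequenced as read pairs, aligned with TopHat2 2.0.13 to Hs37D5 (GRCh37 with decoy) and assembled and compared with Cufflinks 2.2.1. The deposited values are FPKM, 1 per group and locus, which the authors computed over the 3 samples of a group. The table's own fold changes, test statistics, p-values and q-values hold the authors' comparison and were not used.

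Log2 ratios were computed from the FPKM values without a pseudocount. Each symbol was represented by the row with the most RefSeq names, then the highest FPKM, and starts are counted from 1. Several rows were present for 4350 symbols. Among the related genes named, these were CPOX, FLVCR2 and ABCB10 with 2 rows each and CP with 3. For the related lists the choice of row was not varied. Expressed symbols had a mean FPKM of at least 1 and a value above 0 in both groups. Sequences came from GENCODE release 29 by symbol, without its coordinates. With 1 value per group no test was computed from the FPKM values. Members and lists were chosen with earlier results of these data known. Text names all members, the 3 genes of each related list with the largest absolute ratio, and the highest marker, exceptions being stated, and a few results under this rule are not reported here. KLK3, CDH1 and PTPRC, and the ranking among 500 symbols of similar level, were chosen after seeing the data. The functions were tested on simulated data. Python 3.11.15, numpy 2.4.6, pandas 2.3.3 and matplotlib 3.10.9 were used.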

Additional observations from a re-analysis of the deposited data

How the results depend on the processing

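The alternatives were a pseudocount of 0.1 or 1 FPKM, centring on the median of expressed symbols, scaling to the same FPKM sum over loci with a symbol, the locus with the highest FPKM, the sum over loci, other minimum levels and a 2-fold limit. Centring moved every ratio up by 0.24. It put STEAP3 at 0.14, FTL at 0.18 and ACO1 at 0.0038, all 3 with a turned sign, NCOA4 at -0.40 and SLC40A1 at -0.57, short of 1.5-fold, and FBXL5 at 0.65, past it. The count of iron genes lower by 1.5-fold then went from 2 to 1 (IREB2) and the count of higher ones from 0 to 1 (FBXL5), while 13.3% and 4.61% of all expressed symbols were lower and higher. Scaling to the same sum added 0.05. The count of lower genes was also 1 at a mean FPKM of at least 10, which IREB2 does not reach, and 1 at 2-fold. SLC40A1 was at -0.29 with a pseudocount of 1. Of the genes in related lists, 7 in place of 17 were lower at a mean FPKM of at least 10, with 48 in place of 87 genes entering and 24.2% of all symbols at that level lower. Without a minimum level SLC40A1 entered and the count of lower iron genes was 3, beside 19.97% of all symbols. The other ratios kept their sign and their side of 1.5-fold. No paired analysis was possible because the table holds 1 value per group, and for the same reason replicates could not be left out in turn. The fragments behind each FPKM are unknown, so no precision can be given, also for SLC40A1 at a mean FPKM of 0.598.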
